A study of Mus musculus with 3 samples.

Results

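The cytosolic ribosomal protein genes, which encode the protein part of the ribosome outside mitochondria, were followed across the cell classes of mouse brain tissue. Their members were taken by symbol, as every listed gene whose name starts with Rpl or Rps and a digit, leaving out pseudogene symbols with -ps and the Rps6k kinases. This gave 82 of 31053 genes, 49 of the large subunit series (Rpl) and 33 of the small subunit series (Rps), and 80 of them had at least 50 UMIs over the classes compared. A UMI is a molecular tag that marks 1 captured transcript. Single-cell RNA-seq was run on dissociated brain tissue of C56BL6 mice, as the labels spell the strain, aged 10 weeks in 3 groups of 1 sample each, namely control, Ischemic Stroke (IS) and Hemorrhagic Stroke (HS). In the study's methods the ischemic model blocks the middle cerebral artery, the hemorrhagic model injects collagenase into the striatum, and tissue of several mice was collected in each condition. No genotype other than the strain is given for these samples. The barcodes carry suffixes 1 to 3, one for each library, and no label or file used here pairs a suffix with a condition, so the conditions were not compared and no test was run. Values below are means over the libraries in which a class had at least 20 cells, with the SD or the range over them, and since the libraries also differ in condition, library and condition cannot be told apart in that spread.

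Each ribosome has a small subunit, which reads the mRNA, and a large subunit, which joins the amino acids. Nearly every ribosomal protein is present in a single copy per subunit, so cells make the members in closely matched amounts. In mammals this matching rests in part on a pyrimidine stretch at the very start of these mRNAs, the 5′ terminal oligopyrimidine tract, which ties their translation to nutrient and growth signals through the kinase mTOR. Small resting lymphocytes are known for giving a large share of their mRNA to ribosomal proteins, and mature neutrophils for having little ribosome production left.

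Start windows of members that stood apart in the results below are shown. A run of at least 8 C or T bases is present in some of them and not in others. RefSeq promoters (GRCm38.p6) were found for 63 of the 82 members. A run of at least 8 C or T bases lay within 15 bases of the annotated start in 27 of their 75 promoter entries, 36%, read on the strand of the gene, against 12% of all 32851 promoter entries. The same window read for a run of 8 A or G bases, which is the other strand, matched 4% of the members' entries and 13.2% of all entries. Each line gives 30 bases from 15 before the start onward, 5′ to 3′, with a run of 8 or more C or T in capitals.

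Rps15a, chr7:118116133-118116162, minus strand: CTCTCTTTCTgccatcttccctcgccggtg
Rps18, chr17:33955651-33955680, minus strand: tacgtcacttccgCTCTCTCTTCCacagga
Rps9, chr7:3704026-3704055, plus strand: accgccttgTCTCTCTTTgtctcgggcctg
Rpl13, chr8:123102335-123102364, plus strand: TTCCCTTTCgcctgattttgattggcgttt
Rps26, chr10:128626492-128626521, minus strand: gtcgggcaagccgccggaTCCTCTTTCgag
Rpl22l1, chr3:28805493-28805522, plus strand: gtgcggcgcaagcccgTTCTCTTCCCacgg
Rpl12, chr2:32961697-32961726, plus strand: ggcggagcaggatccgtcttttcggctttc
Rpl22, chr4:152324421-152324450, plus strand: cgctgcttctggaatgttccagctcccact
Rpl41, chr10:128549154-128549183, minus strand: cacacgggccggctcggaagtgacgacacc

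The last 3 windows hold no such run, which says only that these letters are not in this window.

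A close copy of a member is shown next because its UMIs cannot be separated from those of its parent. Rps27rt is a retrotransposed copy of Rps27. In GENCODE M21, 98.4% of the 90-base windows in the last 400 bases of the Rps27 transcript also occur in Rps27rt.

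Rps27, chr3:90213634-90213663, minus strand: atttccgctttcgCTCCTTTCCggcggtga
Rps27rt, chr9:114982725-114982754, minus strand: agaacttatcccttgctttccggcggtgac

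Such shared stretches are common in this family. At least 1 such window was shared with another gene in 59 of the 82 members, and at least 50% of the windows were shared in 32 of them. The share was 100% in Rpl9, Rpl10 and Rpl36a, 81% in Rpl3, 86.5% in Rpl13 and 41.2% in Rps9, and 0% in Rpl12, Rpl5 and Rpl14, so single-gene values of members with many shared windows are uncertain and the sum over the members may miss UMIs given to the copies.

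Of 35968 barcodes, 31982 had at least 1000 UMIs and at most 30% mitochondrial (mt-) UMIs, with a median of 5801 to 6389 UMIs in the 3 libraries. Classes were set by raw UMIs of named markers, at least 3 marker genes and 5 marker UMIs, none of them a ribosomal protein gene, and 25600 cells passed exactly 1 gate. The 3046 cells that passed several gates, 9.52%, were left out as possible doublets, and their median was 10754.5 UMIs against 6101 for cells of 1 gate. 13 classes had at least 50 cells and were compared, 25475 cells in all. In each of them at least 1 of its own gate markers stood among its 10 leading genes, and at most 1 marker of another gate, which was Ly6c2 in T cells. Cells were chosen by these markers and left out when they passed several gates, so this is no separate check of the class names. Transcripts of oligodendrocyte markers were found in every class, with 5 or 6 of the 6 markers in at least 5% of its cells and summed levels of 43.1 to 693 CPM outside oligodendrocytes, against 9442 to 10652 CPM in them, and the part of free RNA in the ribosomal protein share was not tested. Markers of other gates crossed classes too, on the same 5% limit. NK cells had 4 of 6 T cell markers at 192 to 208 CPM in sum, and choroid plexus cells 4 of 6 ependymal markers at 276 to 297 CPM. Oligodendrocyte precursors had 5 of 6 neuron markers at 97.3 to 383 CPM. Border macrophages had 4 of 6 microglia markers at 274 CPM. Neurons had 4 of 6 ependymal markers at 111 to 120 CPM and 4 of 6 neuroblast markers at 151 to 160 CPM. With 2 of 6 past the limit, monocyte markers summed to 249 to 2088 CPM in neutrophils and 306 to 1239 CPM in T cells. Further crossings are not listed. Neurons were led by secretory genes such as Scg2 and Avp, so this class of 107 cells does not stand for brain neurons in general. 110 barcode sequences occurred in more than 1 library.

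Ribosomal protein genes took 32.9% ± 3.07 (SD, n = 3 libraries) of all UMIs in T cells and 4.44% ± 0.439 (SD, n = 3 libraries) in neutrophils, the ends of the range. In T cells the share was 33.8%, 29.5% and 35.4% in the libraries with suffix 1, 2 and 3, the last from 20 cells. In neutrophils it was 4.13%, 4.94% and 4.26%. The groups of values lie far apart, and the ratio of T cells to neutrophils was 8.19, 5.97 and 8.32 within the libraries. NK cells, the other lymphocyte class, had 34.3% and 31% in the libraries with suffix 1 and 2, inside the span of T cells, and 3 cells with suffix 3 that gave 17.3% were too few to be used. A 95% exact Poisson interval, which covers counting error only, ran from 35.1% to 35.8% for the smallest T cell library. For neutrophils with suffix 2 it ran from 4.84% to 5.05%, and both were narrower than the spread between libraries.

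**Figure D1:**
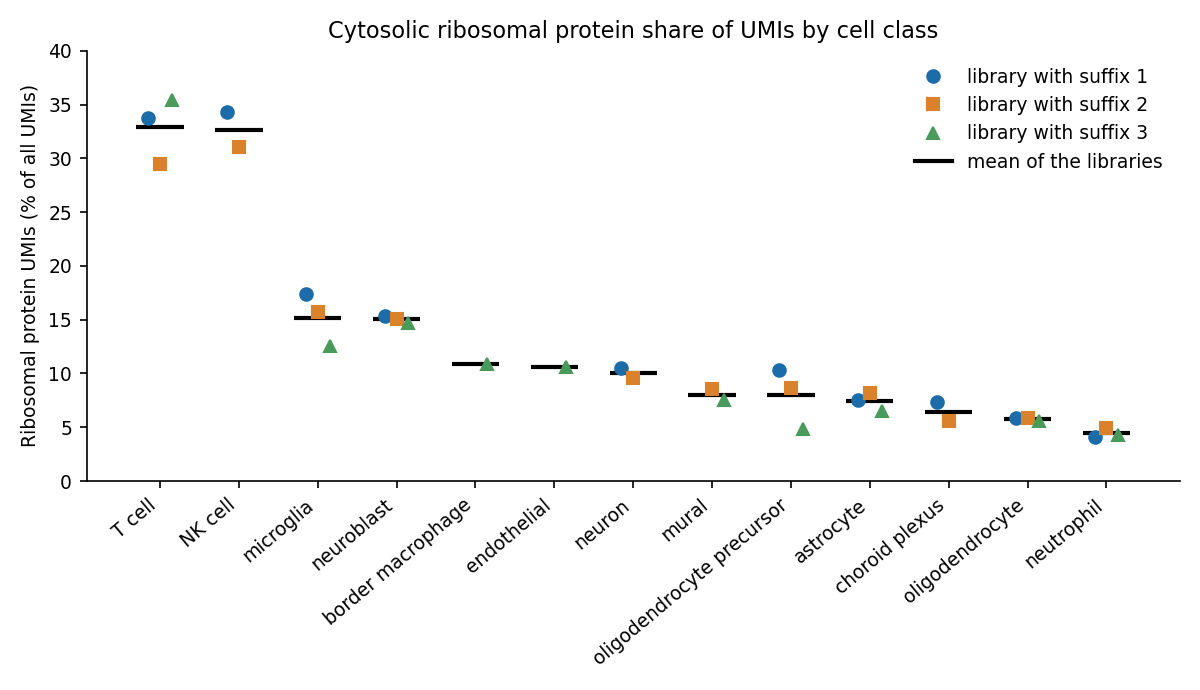
UMIs of the 82 ribosomal protein genes in percent of all UMIs (vertical axis) in 13 cell classes, with 1 point for each library that had at least 20 cells of the class and a bar at their mean. T cells and NK cells sit between 29.5% and 35.4%, and every other class sits at or below 17.4% in each library shown.

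Microglia, the resident macrophages of the brain, had 17.4%, 15.7% and 12.5% in the 3 libraries. Neuroblasts, the migrating newborn neurons, had 15.4%, 15.1% and 14.7%, values within the range of microglia but closer together. Neuroblasts exceeded neurons, which had 10.5% and 9.55%, by 1.46 and 1.58 times in the libraries they share. Border macrophages at 10.8% and endothelial cells at 10.6% each rest on 1 library with suffix 3.

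Mural cells, astrocytes, choroid plexus cells and the oligodendrocyte lineage formed the low end above neutrophils. Mural cells, the contractile cells of vessel walls, had 8.53% and 7.51%. Astrocytes had 7.52%, 8.16% and 6.55%, with a mean of 7.41%. With cells thinned to 1000 UMIs, which weighs each cell equally, the astrocyte mean became 4.59%, below oligodendrocytes at 5.81%. Choroid plexus cells had 7.32% and 5.54%. Oligodendrocytes, the myelinating glia, held 5.82%, 5.84% and 5.56%, with a spread of 0.158 percentage points (SD, n = 3 libraries). Their precursors had 10.4%, 8.64% and 4.86%, with an SD of 2.81, and the lowest value came from 43 cells with a median of 2676 UMIs and 7.43% mitochondrial UMIs against 6357 UMIs and 3.58% in the first library. Without that library the mean of the precursors was 9.5%. The part of depth in this was not tested. Neighbours whose ranges overlapped were T and NK cells, and microglia and neuroblasts. Ranges also overlapped along the chain from mural cells through precursors, astrocytes and choroid plexus to oligodendrocytes. On this share of summed UMIs neutrophils were below every other class within each of the 3 libraries. Across libraries the lowest precursor value, 4.86%, lay below the 4.94% of neutrophils with suffix 2. On the median over single cells astrocytes were lower, at 2.54%, 3.12% and 3.52% against 3.63%, 3.86% and 4.24% in neutrophils. Precursors with suffix 3 were also lower on this median, and the other classes were higher.

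The share is a proportion, so fewer UMIs of other genes and more of these cannot be told apart by it. Per cell, the median number of ribosomal protein UMIs was 1585 in T cells, 1777 in NK cells, 1172 in microglia and 1166 in neurons. It was 786 in neuroblasts, 366 in oligodendrocytes, 155 in neutrophils and 82.2 in astrocytes. Neurons therefore came near microglia in UMIs per cell, with a median of 11612 UMIs in all, while their share was lower. Astrocytes had a median mitochondrial share of 9.49%, the highest of the classes, and their single cells spread widely, with a median ribosomal protein share of 3.17% and a 90th percentile of 11.3%.

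Depth within a class moved with the share. In astrocytes the third of cells with the fewest UMIs had 3%, 3.46% and 3.69% in the 3 libraries and the third with the most had 10.4%, 10.8% and 8.55%. Microglia went the same way, from 13.7% to 18.3%, from 12.5% to 16% and from 10.5% to 13.8%. Oligodendrocytes went the other way, from 6.36% to 5.45%, from 6.44% to 5.63% and from 5.58% to 5.28%. Shallow cells held more mitochondrial UMIs in both, 11.4% against 5.37% in oligodendrocytes and 16.6% against 7.2% in astrocytes with suffix 1, so this sign went with a higher share in oligodendrocytes and a lower one in astrocytes. Thinning every cell to 1000 UMIs gave a ratio of T cells to neutrophils of 6.98. Thinning keeps the expected share of each cell and weighs cells equally, so it does not test the part of depth.

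Single members were then set against the median of the other classes on CPM, the UMIs of a gene per 1000000 UMIs of its class and library, with 1 CPM added, and a member was counted when its fold reached 1.5 or 1/1.5 and stood on the same side of 1 in every library. UMIs tag one end of a transcript, so CPM of different genes were not divided by length. Over all classes 520 of 1040 member-class pairs passed, against 47.2% of the pairs of all genes tested. The directions followed the sum. In T cells 77 of 80 members were higher and Rps19bp1 lower, where 10.4% of all 15458 genes tested were higher and 31.3% lower. The call of Rps19bp1 rests on the library of 20 T cells, where it had 0 CPM. In NK cells 76 were higher and Rpl7l1 lower, against 12.9% and 35.1% of all genes. In neutrophils 74 were lower and none higher, against 46.1% and 9.11%. Oligodendrocytes had 58 lower, against 14.2%, and choroid plexus 40, against 42%, which is near that background. Microglia had 55 higher and none lower, against 18.7% and 25.7%, and neuroblasts 62 higher and none lower, against 43% and 11.3%.

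Elsewhere fewer members passed, though lower members in astrocytes and precursors were more frequent than lower genes among all genes. Border macrophages had 14 higher (20% of all genes) and Rps6 and Rpl15 lower (30.7%). Neurons had 7 higher (39%) and Rpl22 and Rps27l lower (13.2%), and endothelial cells 7 higher (25.4%). Astrocytes had Rps19bp1 higher (33.5%) and 17 lower (7.19%). Precursors had Rpl13, Rps27l and Rpl7l1 higher (45.4%) and 13 lower (5.27%), and mural cells Rpl22l1 higher (20.2%) and 8 lower (17.8%). In choroid plexus only Rps27l was higher (13.6%).

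Most members ran with the sum that holds them. Across the 13 classes each member's log2(CPM + 1) was correlated with the log2 of the summed share. The median Pearson r was 0.963, and 65 of 79 members were above 0.9. This describes classes that share libraries, with each member being part of the sum. No count over all genes stands beside it, so it is not read as particular to the members. Rps23, a protein of the decoding centre, had the highest at 0.995. The lowest were Rps19bp1 at -0.16, Rpl7l1 at -0.13 and Rps27l at -0.06. These symbols meet the rule, but Rps19bp1 is known as a nucleolar protein that binds Rps19 and Rpl7l1 as a ribosome assembly relative of Rpl7, and neither is a standard subunit protein.

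The most abundant members by mean CPM over the classes were Rps24 at 3731, Rpl13 at 3717, Rps29 at 3249, Rpl23 at 2827 and Rpl27a at 2574. The least abundant with at least 50 UMIs were Rpl39l at 1.48, Rps19bp1 at 41.2, Rpl7l1 at 54, Rps27rt at 106 and Rpl13a at 180. Rpl10l had 0 UMIs in every class. In the 8971 microglia this allows a share of up to 0.0334% of cells with a UMI, taken as 3 of these cells.

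To look past this common variation, each member was expressed in percent of the UMIs of all 82 genes. On this scale 96 of 1040 pairs passed the fold of 1.5, against 57.5% of the pairs of all genes. Those genes are divided by a sum they are not part of, so their shares move against the sum of the class. In T cells 3.91% of all genes were higher and 67.4% lower, against 10.4% and 31.3% on CPM. In oligodendrocytes 62.4% were higher and 5.73% lower, against 29% and 14.2% on CPM. The relative counts by class below are therefore not read against the shares of all genes given beside them. 43 members passed in at least 1 class and 37 in none. No share of all genes stands beside these counts, so they are not read as many or few. The small subunit genes made up 41.5% to 49.8% of the ribosomal protein UMIs, lowest in precursors and highest in neutrophils, where the libraries ran from 47.9% to 52.3%.

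**Figure D2:**
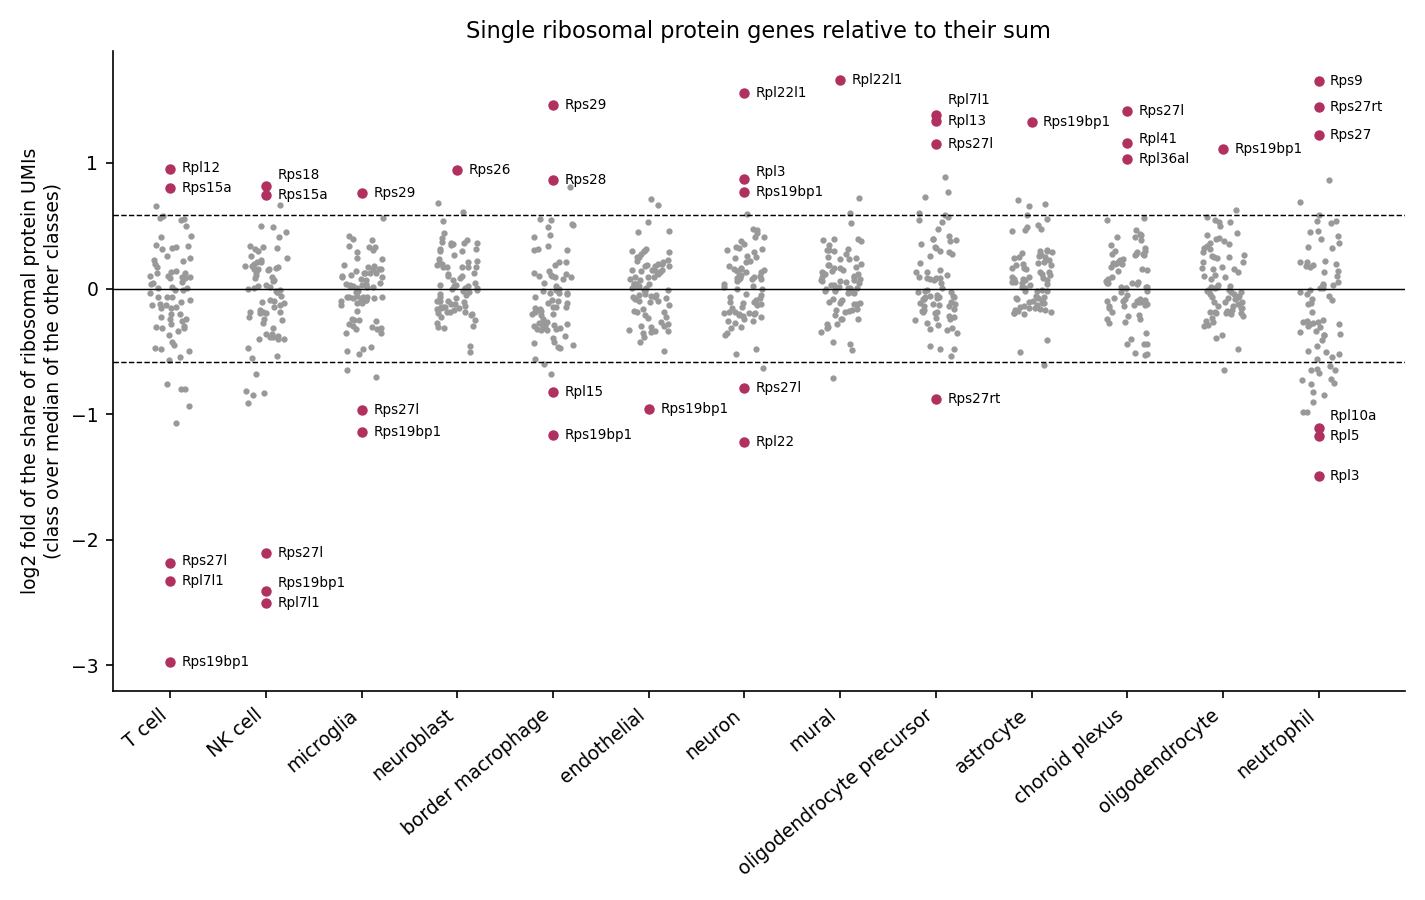
Log2 fold of each member's percent of ribosomal protein UMIs in a class over the median of the other classes (vertical axis), 1 point a member, for 79 members with at least 50 UMIs (Rpl39l, with 312 UMIs in all, is not drawn). Red points with names are members far past the fold of 1.5 (dashed lines) in each direction, such as Rpl22l1 in neurons and mural cells and Rps9 in neutrophils.

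In T cells 4 members, Rpl12, Rps15a, Rps18 and the sparse Rpl39l, were higher relative to the sum (3.91% of all genes) and 8 lower (67.4%). Rpl12, a protein of the stalk base of the large subunit, made up 1.5%, 1.48% and 1.73% of ribosomal protein UMIs in the 3 libraries against a median of 0.811% in the other classes, a relative fold of 1.94. Rps15a made up 2.4%, 2.53% and 2.51% against 1.42%, a fold of 1.74. Both stood above that median in every library. NK cells had 3 members higher (5.1% of all genes) and 8 lower (72%). Their higher members were Rps18 at 2.36% and 2.46%, a fold of 1.77, Rps15a at a fold of 1.68 and Rpl12 at a fold of 1.58. The 2 lymphocyte classes thus shared Rps15a and Rpl12 among the members furthest from the sum, and in T cells Rps18 held 2.16%, 2.15% and 2.13%, a fold of 1.57.

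The members lowest relative to the sum in lymphocytes differed less from the other classes on CPM, where Rps19bp1 in T cells and Rpl7l1 in NK cells still passed the fold. Rps27l, a relative of Rps27 known as a p53 target, had 208, 158 and 169 CPM in T cells against a median of 233 CPM in the other classes, and 211 and 165 CPM in NK cells. Rpl7l1 had 35.9, 31.3 and 42.3 CPM in T cells against 51.2, and 34.9 and 29 CPM in NK cells. Rps19bp1 had 29.8, 28 and 0 CPM in T cells against 32.8, the last from 0 UMIs in 20 cells. Its pass on CPM rests on that small library. Relative to the sum they stood at 0.22, 0.20 and 0.13 of the other classes in T cells.

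In microglia Rps29 and the sparse Rpl39l were relatively higher (17.1% of all genes) and 4 lower (45.6%). Rps29, a small zinc-binding protein of the small subunit, made up 4.17%, 2.88% and 4.38% of ribosomal protein UMIs against a median of 2.25% elsewhere, a fold of 1.69. In border macrophages, where 4 members were higher, Rpl39l and Rps27rt among them (19.2%), and 4 lower (41.2%), Rps29 reached 6.19% in 1 library, a fold of 2.75, or 2.54 within that library. Rps28, another small member of the small subunit, stood at a fold of 1.82 there, and Rpl15 and Rpl24 at 0.56 and 0.62. Both brain macrophage classes thus had Rps29 above the median of the other classes, border macrophages from 115 cells. Neutrophils held 3.27%, a fold of 1.45, so a raised Rps29 share was not confined to these 2 classes. Endothelial cells, also of 1 library, had Rpl38 higher at 1.64, Rpl41 at 1.59 and Rpl39l from 17 UMIs (28.6%), and Rps19bp1 lower at 0.51 (19.7%).

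In neuroblasts 3 members were relatively higher (27.6% of all genes) and none lower (22%). Rps26, which lines the mRNA exit channel of the small subunit, made up 1.87%, 1.63% and 1.72% against a median of 0.902% elsewhere, a fold of 1.93. Rpl23a stood at a fold of 1.53, or 1.48 on folds within each library. Its relative fold was 1.57 in astrocytes and 1.498 in precursors, so a raised share of Rpl23a was not confined to neuroblasts.

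Neurons had 4 members relatively higher (39.6% of all genes) and 3 lower (14.4%), and a pair of related genes went opposite ways in them. Rpl22l1 and Rpl22 encode related large subunit proteins that bind RNA, and Rpl22 is known to lower Rpl22l1. Rpl22l1 (ENSMUSG00000039221) reached 1436 and 1163 CPM in neurons with suffix 1 and 2 against a median of 519 CPM in the other classes. Rpl22 (ENSMUSG00000028936) stood at 357 and 309 CPM against 741. Relative to the sum Rpl22l1 was 2.94 times and Rpl22 0.43 times the other classes. Rpl3, which shapes the centre where peptide bonds form, was also relatively higher at 1.91% and 2.02% of ribosomal protein UMIs, a fold of 1.83. Others past the fold were Rps19bp1 at 1.71 and Rpl31 at 1.51 on the higher side and Rps27l at 0.58 on the lower, of which Rps19bp1 fell short at 1.28 on folds within each library.

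Of the UMIs of this pair, Rpl22l1 made up 80.1% and 79% in neurons. Mural cells followed with 64% and 67.8%, where Rpl22l1 stood at 1044 and 1167 CPM and a relative fold of 3.17. Next came precursors with 43.9%, 47.2% and 51.8% and choroid plexus with 43.1% and 51.4%. The classes below were astrocytes, endothelial cells, oligodendrocytes, border macrophages, neuroblasts, neutrophils, microglia and T cells, with means from 44.5% down to 29%, and NK cells at 24.4% and 26.1%. Neurons and mural cells did not overlap with any other class or with each other. Further down, astrocytes stayed above the 41.7% of the single endothelial library, that library stayed above oligodendrocytes, and T cells stayed above NK cells, while the other neighbours with 2 or 3 libraries each overlapped. Shared 90-base windows made up 41.8% of Rpl22l1 and 0.965% of Rpl22, and UMIs that the counting gave to the other gene are not in these shares.

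**Figure D3:**
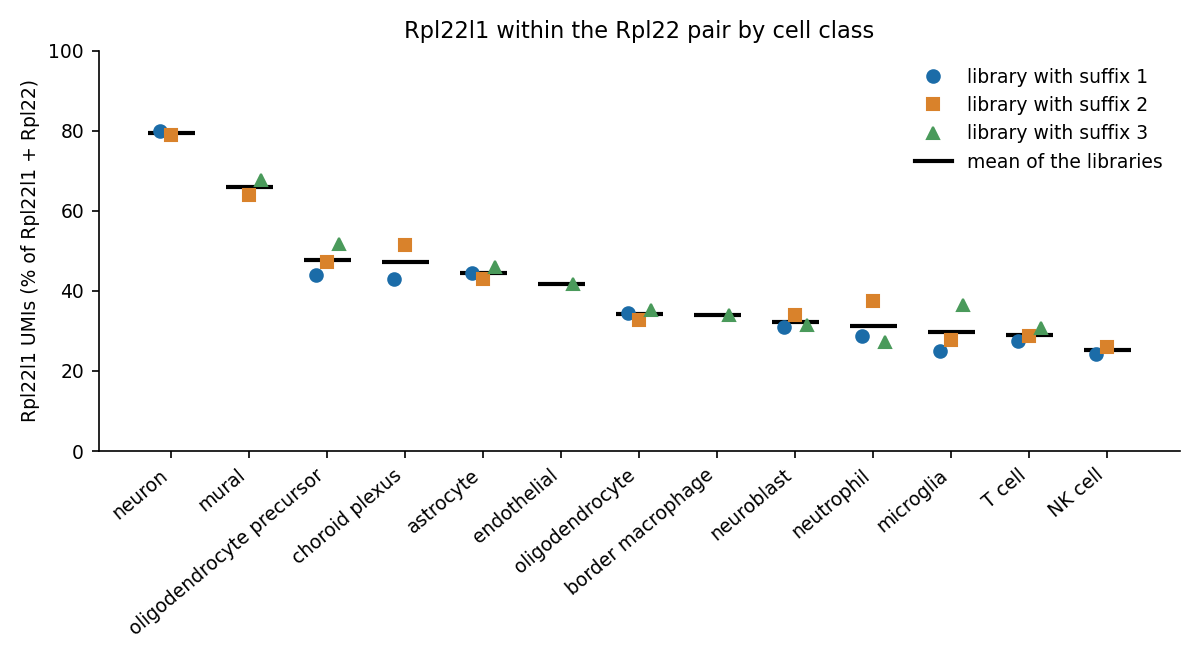
Rpl22l1 UMIs in percent of the UMIs of Rpl22l1 and Rpl22 together (vertical axis) by cell class, with 1 point for each library with at least 20 cells and a bar at their mean. Neurons sit at 79% and 80.1% and mural cells at 64% and 67.8%, and no library of another class reaches 52%.

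Precursors of oligodendrocytes had 7 members relatively higher (56.5% of all genes) and 1 lower (4.02%). Rpl13 made up 4.87%, 7.24% and 7.97% of their ribosomal protein UMIs against a median of 2.65% elsewhere, a fold of 2.53, and its level was 5047, 6248 and 3877 CPM. Rpl7l1 had 121, 124 and 72.7 CPM, a relative fold of 2.60, the last from 11 UMIs. Rps27l had 555, 411 and 277 CPM, a relative fold of 2.22. All 3 genes were above the median of the other classes in every library, and 86.5% of the windows of Rpl13 are shared with other genes.

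Oligodendrocytes had 2 higher (62.4%) and 1 lower (5.73%), with Rps19bp1 at a relative fold of 2.16, Rpl14 at 1.54 and Rpl10a at 0.64. Astrocytes had 4 higher (46.3%) and 1 lower (4.42%), led by Rps19bp1 at 2.51 from 94 UMIs. Choroid plexus cells had 3 higher (22.1%) and none lower (32.4%). Rps27l stood there at 504 and 319 CPM, a fold of 2.67, Rpl41, the shortest ribosomal protein, at 4.24% and 3.84%, a fold of 2.23, and Rpl36al at a fold of 2.05. Mural cells had 3 higher (27.7%) and 1 lower (15.6%), and beside Rpl22l1 these rested on 21 to 184 UMIs each.

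Neutrophils had the most members away from the sum, 5 higher (17.2% of all genes) and 17 lower (30.3%). The higher ones were Rps9, Rps27 and its copy Rps27rt, Rps27a and Rpl37. Rps9 (ENSMUSG00000006333), an early assembly protein of the small subunit, had 2248, 2135 and 2273 CPM against a median of 1533 CPM in the other classes, a fold of 1.45 on CPM in a class where 74 of 80 members were lower. It made up 5.45%, 4.32% and 5.34% of their ribosomal protein UMIs against 1.6%, a fold of 3.15. Rps27 held 4.65%, 2.63% and 3.15%, a fold of 2.34. At the low end Rpl3 had 182, 253 and 92.6 CPM against 1049, Rpl5, which carries 5S rRNA to the large subunit, had 122, 182 and 56.6 CPM against 614, and Rpl10a had 179, 265 and 87.4 CPM against 756. Their relative folds were 0.35, 0.44 and 0.46, from 214, 144 and 212 UMIs.

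The other relatives of standard members ranged from sparse to common. Rps27rt made up 3.88% to 5.5% of the UMIs of Rps27rt and Rps27 as a mean in every class, a narrow band for a pair with nearly all windows in common. Rpl36al made up 23.3% to 38.3% of the Rpl36al and Rpl36a UMIs, with a range of 19.5% to 63.6% within neutrophils alone. Rps27l ranged from 2.53% of Rps27l and Rps27 in T cells to 34.2% in precursors, and Rpl7l1 from 1.03% of Rpl7l1 and Rpl7 in NK cells to 12.3% in precursors. Rpl39l, a relative of Rpl39 best known from the testis, had 312 UMIs in all. Of these, 268 lay in 161 of 8971 microglia (1.79%), with 62, 182 and 24 UMIs by library, and 17 in 12 of 866 endothelial cells (1.39%), whereas 9506 oligodendrocytes had 8 in 6 cells (0.0631%). Their median depths were 7714, 5448 and 6102 UMIs, and with every cell thinned to 1000 UMIs the share in microglia was 0.301% and in oligodendrocytes 0%. Its CPM of 31.7 in the T cells with suffix 3 came from 3 UMIs in a single cell, against 0.69 CPM or less in the other libraries, so its fold is not read as a difference and its place in the counts above rests on few UMIs.

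Cells passing a gate of cell cycle markers such as Mki67 and Top2a had a lower ribosomal protein share than the other cells of their class in all 7 class-library pairs with at least 20 such cells. In microglia it was 16.2% against 17.4% and 13.4% against 15.8% for suffix 1 and 2. In T cells it was 27.6% against 35.1% and 25.9% against 30%. Neuroblasts had 15% against 15.5%, 14.3% against 15.5% and 14.2% against 14.9%. The ratios ran from 0.787 in T cells with suffix 1 to 0.970 in neuroblasts with suffix 1, with a mean of 0.897 ± 0.0663 (SD, n = 7 pairs). Dividing cells had more UMIs, with medians of 9597 to 19316 against 3811 to 8412, and more ribosomal protein UMIs per cell in each pair, such as 3743 against 2041 in T cells with suffix 1. Set against the third of the other cells with the most UMIs, an alternative chosen after seeing the data, the ratio was 0.740 to 0.940. Depth was not matched by this. Dividing cells still had more UMIs in each pair, such as a median of 12339 against 7545 in T cells with suffix 1.

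**Figure D4:**
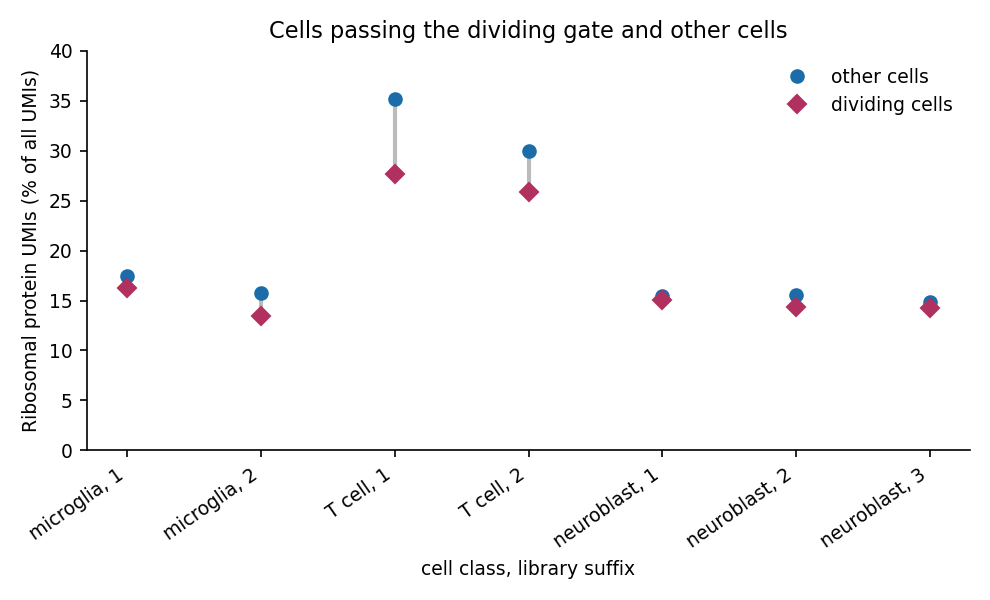
Ribosomal protein UMIs in percent of all UMIs (vertical axis) in cells that passed the gate of cell cycle markers (diamonds) and in the other cells (circles) of the same class and library. The diamond lies below the circle in all 7 pairs, by 7.48 percentage points in T cells with suffix 1 and by 0.471 in neuroblasts with suffix 1.

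The members also differed between libraries inside a class, and this bears on each single-member value above. In microglia, oligodendrocytes and neuroblasts, 72 of 80 members moved the same way between suffix 2 and suffix 1 relative to the sum, 43 between suffix 3 and 1 and 56 between suffix 3 and 2. These counts cover the members only, without a background over all genes, so the shift is not read as particular to them. Members with short annotated transcripts tended to be lower in suffix 2 than in suffix 1, with a Spearman rho of 0.508 between length and the log2 difference. Between suffix 3 and 1 this rho was 0.134. Length was that of 1 annotated coding transcript per gene, such as 474 bases for Rpl22, whose coding transcripts have a median of 2048 bases. The log2 difference was -0.59 for Rps27, -0.58 for Rps21, -0.55 for Rpl38 and -0.51 for Rps29 as a mean of the 3 classes, and 9 of the 10 members with the shortest annotated transcripts, up to 483 bases, were lower. Rpl37 and Rpl35, of 835 and 946 bases, were also lower, at -0.48 each. Rps2 was the furthest in the other direction at 0.26. Library and condition cannot be told apart here. Border macrophages and endothelial cells came from suffix 3 alone, so their folds against classes of other libraries hold this difference too, and on folds taken within each library, an alternative added after seeing the data, Rpl38 in endothelial cells fell short at 1.48.

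**Figure D5:**
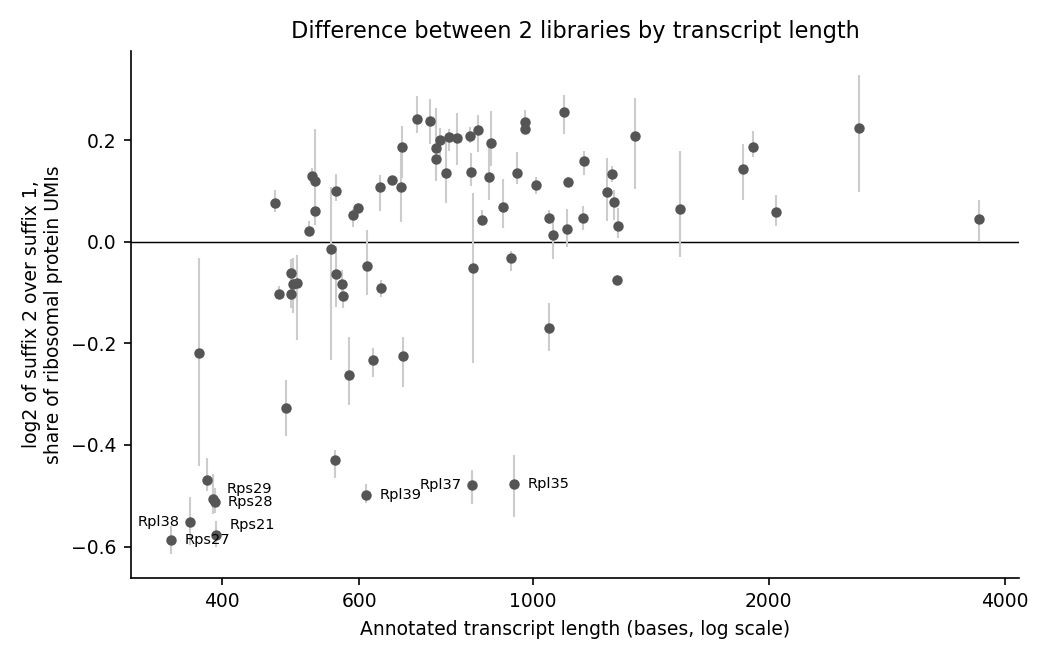
Log2 difference of each member's share of ribosomal protein UMIs between the libraries with suffix 2 and suffix 1 (vertical axis) against its annotated transcript length (log axis, bases), as the mean of microglia, oligodendrocytes and neuroblasts with a bar from the lowest to the highest class. 9 of the 10 shortest transcripts lie below 0, such as Rps27 at -0.59.

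Lists of related genes were counted in the same way on CPM. Of 7 other ribosomal proteins whose symbols the rule leaves out, such as the stalk proteins Rplp0 and Rplp1, all 7 were higher in T cells, NK cells and microglia. Of all genes 10.4%, 12.9% and 18.7% were higher there. The median fold of the 7 in T cells was 4.89 against 0.848 over all genes. In neutrophils 6 were lower and 1 higher, against 46.1% and 9.11% of all genes. The higher one was Fau, a ubiquitin-like fusion to Rps30, at 3898 CPM and a fold of 1.98. Of 11 elongation factors and other mRNAs with the pyrimidine start, 9 were higher in T cells, 9 in NK cells and 9 in neuroblasts, and 9 were lower in neutrophils, against 10.4%, 12.9%, 43% and 46.1% of all genes. Their median fold was 2.17 in T cells. Tpt1, the translationally controlled tumor protein, reached 12980 CPM in T cells, a fold of 3.43.

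Initiation and ribosome production genes followed the sum less closely. Of 27 initiation factors 7 were higher and 2 lower in T cells, 16 were higher in neuroblasts, and 24 were lower and 1 higher in neutrophils, against 10.4% and 31.3%, 43%, and 46.1% and 9.11% of all genes. Their median fold in T cells was 1.13. Of 23 ribosome biogenesis genes 4 were higher and 3 lower in T cells (10.4% and 31.3% of all genes), and 21 were lower in neutrophils (46.1%). In neuroblasts 19 were higher, in precursors 12 and in neurons 11. Of all genes 43%, 45.4% and 39% were higher in neuroblasts, precursors and neurons, so the counts in the last pair lie near their background. Their median fold in neuroblasts was 1.81, against 1.36 over all genes. Npm1, a nucleolar histone chaperone, was high in T cells at 1379 CPM and in neuroblasts at 1151 CPM, and stood at 91.2 CPM in neutrophils. Of 11 assembly chaperones 2 were higher and 2 lower in T cells (10.4% and 31.3% of all genes), and 9 were lower in neutrophils (46.1%), where their median fold was 0.198 against 0.634 over all genes.

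Mitochondrial ribosomal proteins, which serve the separate ribosome of that organelle, had another order. Of 78 such genes 46 were higher in neurons (39% of all genes), 47 in neuroblasts (43%) and 47 in precursors (45.4%). In T cells 4 were higher (10.4%) and 19 lower (31.3%), while 44 were lower in microglia (25.7%) and 69 in neutrophils (46.1%). The median fold was 1.62 in neurons against 1.34 over all genes, and 1.68 in precursors against 1.70. Their summed share was 0.753% of UMIs in neurons, 0.687% in neuroblasts, 0.435% in T cells and 0.210% in neutrophils. Neurons thus ranked first on this sum and in the middle on the cytosolic sum, and neutrophils last on both.

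Outside the rule, the genes whose log2(CPM + 1) ran closest to the summed share over the 13 classes were Rplp2 with a Pearson r of 0.990, Eef1b2 with 0.986, Rack1 with 0.978, Gm11808 with 0.967 and Eif3f with 0.953. They were followed by others such as Rpl27-ps3, Rpsa, Rplp0 and Gm2000. The points are classes that share 3 libraries, and several of the genes are ribosomal proteins or pseudogenes with shared sequence, such as Rpl27-ps3, which holds 86.5% of the Rpl27 windows.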

How the data were processed

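The deposited matrix held whole-number UMI counts for 31053 genes and 35968 barcodes, which the authors made with Cell Ranger 3.1.0, STAR and mm10, per the labels and methods, with reads down-sampled between libraries as required. The study filtered on the mean ± 2 SD of UMIs and genes. Here only the upper of these limits was applied, as an alternative. Total UMIs per library were 72498768, 105957232 and 69270514. Members, gates and lists were chosen with earlier results of these data known. Cells needed 1000 UMIs and at most 30% mt- UMIs. CPM were computed per class and library with at least 20 cells and averaged over libraries with equal weight. No doublet caller was run, and cells passing several gates were left out. Folds used a pseudocount of 1 CPM. With 1 pooled sample there was no test, and the fold rule was tested on simulated data. Named genes were the 5 members with the highest and the lowest mean CPM, up to 3 per class and direction furthest past the relative fold, every related pair, up to 4 abundant genes of each list (of which the text gives a few), and the 10 other genes with at least 1000 UMIs and the highest correlation; some of these are not reported here. Alternatives changed the cell filters, gates, denominator, weighting, pseudocount, fold and depth, and left out each library. Sequences came from RefSeq and GENCODE M21. Python 3.11.15, numpy 2.4.6, scipy 1.17.1, pandas 2.3.3 and matplotlib 3.10.9 were used.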

Additional observations from a re-analysis of the deposited data

Results flagged for a closer look

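Some values lie outside the comparisons above because too few UMIs or cells were counted. Rpl3l, a relative of Rpl3 best known from heart and skeletal muscle, had 35 UMIs over the classes compared, below the 50 UMIs asked of a gene. Of these, 27 lay in 21 of 315 neutrophils (6.67%, exact 95% interval 4.17% to 10%, for counting error only), with 19 UMIs in 15 of 227 cells, 2 in 2 of 62 and 6 in 4 of 26 in the 3 libraries, and 8 lay in all other classes. None was found in 8971 microglia, at a median depth of 7714 UMIs against 2975 in neutrophils. This allows a share of up to 0.0334% of microglia with a UMI, taken as 3 of the 8971 cells and not as an exact interval. After thinning to 1000 UMIs the share in neutrophils was 1.9%. None of its 90-base windows is shared with another gene.

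Gates with under 50 cells were not compared. The 38 B cells gave a ribosomal protein share of 24.7%, between T cells and microglia, and the 34 monocytes gave 17.2%. The 18 fibroblasts gave 5.99% and the 12 ependymal cells 7.97%. The 23 erythroid cells gave 0.746%, below the 4.26% of neutrophils pooled in the same way. All these values pool the libraries and have no spread.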

How the results depend on the processing

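No paired analysis was possible because the series has 1 sample per condition and no condition was compared. The ratio of the T cell to the neutrophil share, 7.41, fell to 5.45 when cells of several gates went to the class with at least 4 times the marker UMIs of the next; in the 13 other settings it moved by less than the spread between libraries, with 6.98 to 8.25 when 1 library was left out. Of 143 values of the class shares 9 moved by more than that spread. Astrocytes ranged from 4.59% with thinning to 9.37% with a mitochondrial limit of 10%, and neutrophils reached 5.97% with cells of several gates assigned. With a fold of 2 instead of 1.5 the pairs past the fold were 275 on CPM and 31 relative to the sum, a smaller number by construction; all 15 other settings stayed within 1.5 times of 520 and 96, from 489 to 567 and from 74 to 114. Leaving out a library gave 492 to 548 and 86 to 114, without suffix 3 with 11 classes. Rpl22l1 in percent of its pair in neurons was 82.3% after thinning to 1000 UMIs, for which the cause was not tested, and 79% to 80.1% when a library was left out. The mean ratio of dividing to other cells was below 1 in all 13 settings, and 0.887 to 0.911 without 1 library. Of 950 values of the 60 named member-class pairs, 864 kept their direction and fold, 85 kept the direction only, and Rpl39l in border macrophages turned to 0.55 with gates of 2 marker genes. With cells of several gates assigned, 49 of 60 pairs kept both, the fewest at this fold. On folds within each library, an alternative chosen after seeing the data, 54 did, without Rpl22l1 in microglia, Rpl23a in neuroblasts, Rpl24 in border macrophages, Rpl38 in endothelial cells, Rps19bp1 in neurons and Rps27l in mural cells. Depth limits the rare members most, since 1 UMI in the smallest libraries is worth over 10 CPM.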
